A study of Apis mellifera with 27 samples.

Results

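Mad is the gene for Mothers against dpp, the transcription factor of the bone morphogenetic protein (BMP) pathway. In the honey bee (Apis mellifera) assembly Amel_HAv3.1 it spans 409 kb of chromosome 15 (chr15:951021-1360467, gene ID 724047) and is 1 of 12398 genes in the RefSeq gene table, of which it is the 32nd longest. The table lists 6 transcripts of it and gives neither strand nor exons, so a gene end can be a transcription start or a transcription end. The members described here are all peaks of 4 histone modifications that overlap the gene or 10 kb on either side of it (chr15:941021-1370467, 429 kb), which is called the Mad window. There were 113 H3K27ac peaks in 2 drone libraries, 143 in 2 queen libraries and 186 in 2 worker libraries, together with 55, 64 and 44 H3K4me1 peaks and 6, 11 and 13 H3K4me3 peaks of drone, queen and worker. H3K27me3 had 0 peaks in all 6 libraries. These are counts of calls summed over libraries, out of between 3866 and 26256 peaks in a single list.

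In the BMP pathway a secreted ligand such as Dpp binds a pair of receptor kinases at the cell surface, and the activated type I receptor phosphorylates Mad. Phosphorylated Mad then joins the co-Smad Medea, enters the nucleus and binds regulatory DNA of target genes. In Drosophila the pathway patterns the embryo and the wing, and in motor neurons it controls growth of the neuromuscular synapse. Of the marks, H3K27ac is commonly found at active enhancers and promoters, H3K4me3 at active gene starts, H3K4me1 at enhancers and H3K27me3 at genes silenced by Polycomb proteins.

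Chromatin immunoprecipitation and sequencing had been carried out on central brains of newly emerged adults of 3 castes that shared a mother queen. Drones are haploid males, whereas queens and workers are diploid females that differ in what they were fed as larvae. Each library came from a pool of brains of 1 caste, and each caste and mark had 2 such libraries. The dissections left out the optic lobes in every caste and, in workers, the hypopharyngeal glands, which make brood food. A brain is a mixture of neurons, glia and other cells, and in such pools a mark in few cells cannot be told apart from a weak mark in many. Sex, ploidy and caste vary together between drones and females, and their parts cannot be told apart here.

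The number of tags behind a list, recovered from the deposited values, lay between 4.20 M (mega) and 25.1 M over the 24 libraries. In each mark both drone lists rested on fewer recovered tags than all 4 female lists. For H3K27ac they numbered 10.8 M and 8.76 M in drones, 15.7 M and 14.2 M in queens and 21.1 M and 20.5 M in workers. These numbers, called depth here, are estimates from the peak lists and not read counts. The study's mapped read counts do not follow this order. Its drone H3K27ac libraries had more mapped reads than its queen ones, and its drone H3K4me3 libraries did not have the fewest. The reason was not tested. The neuronal marker genes Syt1, brp, Syx1A and Para all overlapped H3K27ac in both libraries of every caste. By contrast, the 3 matched hypopharyngeal gland genes and vitellogenin, a fat body product, overlapped no H3K27ac or H3K4me3 peak called in both libraries of a caste. Of 2 matched muscle genes, TpnT (troponin T) had H3K27ac and H3K4me3 in both queen and both worker libraries but not in both drone libraries, and TpnI had neither mark in both libraries of any caste. Both muscle genes also overlapped H3K27me3 in both libraries of every caste. The caste in which TpnT lacked H3K27ac and H3K4me3 calls in both libraries was also the caste with the lowest H3K27ac counts at Mad. A call in 1 drone library is not excluded by this rule. The part of muscle in those counts was not tested. The 4 glial markers searched were not matched by symbol and were not analysed here.

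Mad carried many small H3K27ac peaks spread over its whole length, few H3K4me3 peaks and no H3K27me3 peak. Drone H3K27ac replicates 1 and 2 had 61 and 52 peaks in the window, queen replicates had 70 and 73, and worker replicates had 85 and 101. The castes did not overlap, and the order from drone to queen to worker was the order of the recovered tag numbers given above. The peaks covered 26.7 and 23.4 kb of the window in drones, 38.2 and 33.3 kb in queens and 44.2 and 46.4 kb in workers. Thus 5.84% ± 0.553 of the window was under an H3K27ac peak in drones, 8.33% ± 0.807 in queens and 10.5% ± 0.366 in workers (SD, n = 2 each). Over the placed chromosomes the covered share was 6.07% and 5.70% in drones, 7.53% and 6.07% in queens and 6.78% and 6.36% in workers. By length the drone window, with 6.23% and 5.45% in replicates 1 and 2, was thus close to the chromosomes as a whole. Each queen and worker library covered a larger share of the window.

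**Figure D1:**
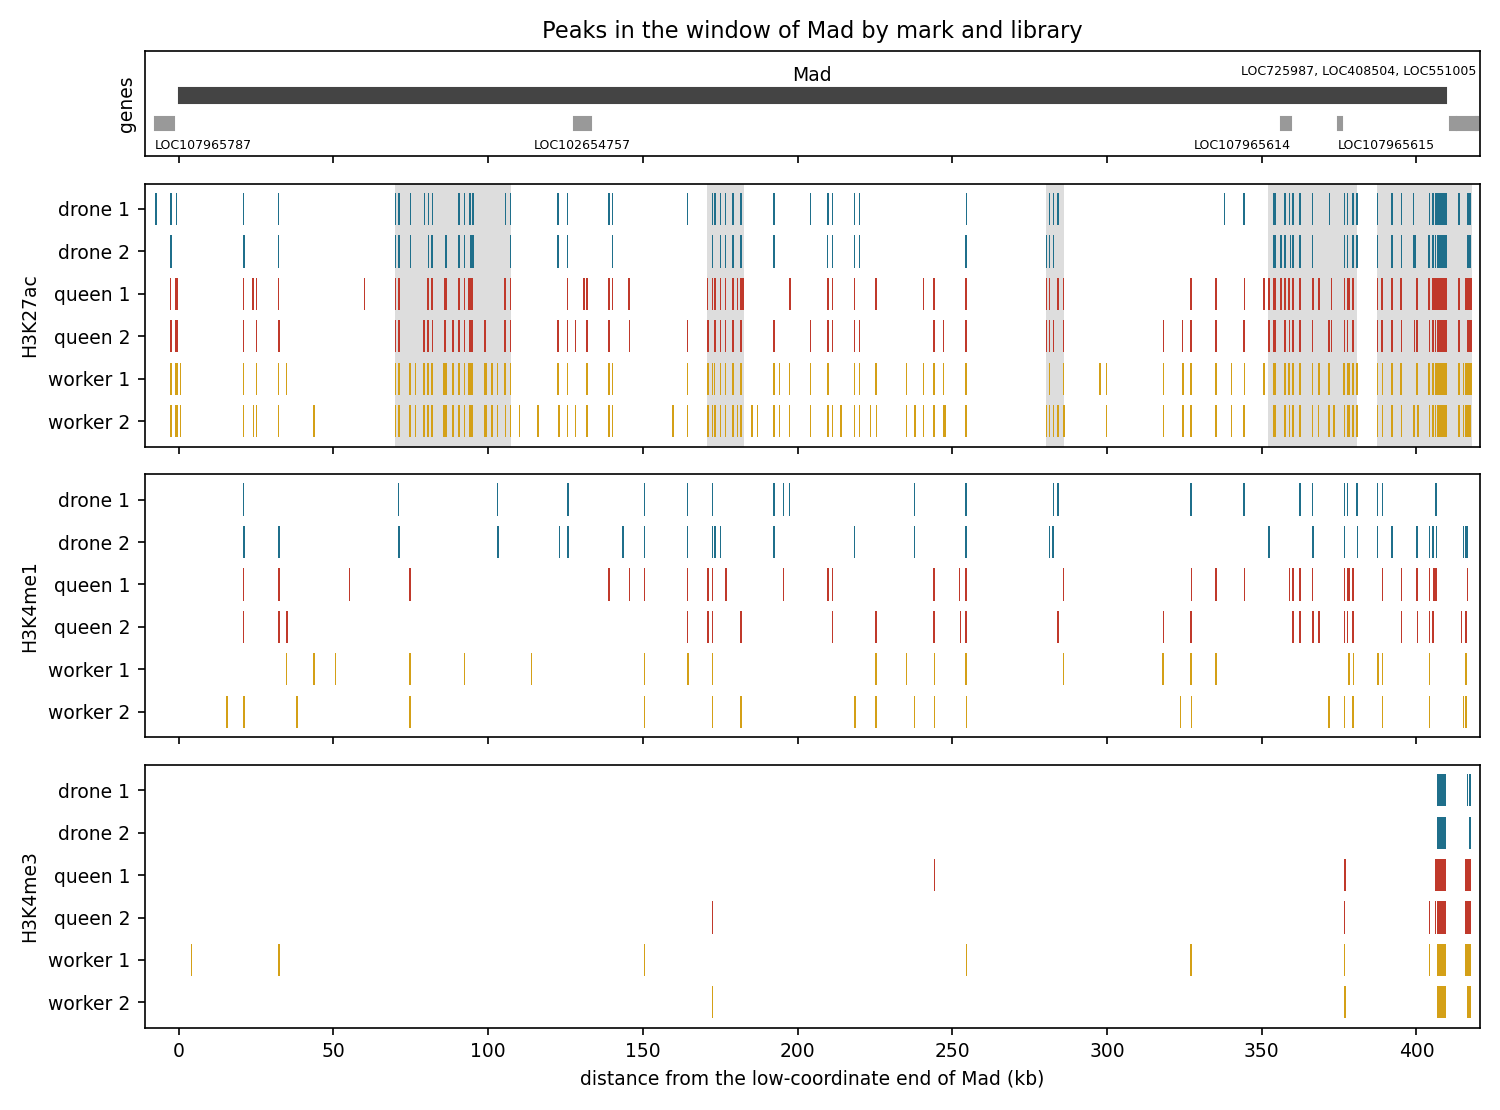
Peaks in the Mad window, drawn to scale against the distance in kb from the low-coordinate end of Mad, with 1 line per library (drone above queen above worker) and peaks narrower than 0.45 kb widened so that they can be seen. The top panel shows Mad and the genes around or inside it, and grey shading marks the 5 H3K27ac clusters with at least 4 regions. H3K27ac peaks are spread along the gene in all libraries, while H3K4me3 is concentrated at the high-coordinate end.

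Since lists differ in length, the count in the window was also set against all peaks of the same library. Of every 1000 H3K27ac peaks on the 16 placed chromosomes, 2.63 and 2.43 lay in the window in drones, 2.99 and 2.83 in queens and 3.93 and 3.85 in workers. An even spread over the placed chromosomes would have put 1.95 of every 1000 there, and the observed count was between 1.25 and 2.02 times that. This excess is one of peak counts, and in drones the length covered showed none in replicate 2 and little in replicate 1. In every library the median fold over the local background was lower in the window than in the whole list. It was 2.87 against 3.94 in drone replicate 1 and 2.24 against 3.03 in worker replicate 1. The drone share was lower than that of the females by a log2 ratio of -0.41 (mean 2.53 ± 0.144 in drones, SD, n = 2, against 3.40 in the 4 female libraries), with a pooled within-caste SD of 0.058. The exact two-sided permutation test over libraries gave p = 0.133, the smallest that 2 against 4 libraries allow. The queen share was lower than that of the workers by a log2 ratio of -0.42 (2.91 ± 0.111 in queens against 3.89 ± 0.0525 in workers, SD, n = 2 each), with an exact permutation p = 0.333, the smallest that 2 against 2 allow. Both differences were several times the spread between replicates, but neither could reach 0.05 in this design, and after adjustment over the 6 comparisons tested both were at 0.667.

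This order was not rare among long genes. Of 379 genes of at least 100 kb with any H3K27ac peak, 15.6% also had worker above queen above drone with no overlap, 29.8% had both worker libraries above the other 4, and 32.2% had both drone libraries below the other 4. After pileup and background were scaled to the lowest H3K27ac depth, with the threshold changed to a −log10 p of at least 4, the shares became 2.54 and 2.38 per 1000 in drones, 3.01 and 2.70 in queens and 3.27 and 3.31 in workers. The castes still did not overlap, and the queen over worker log2 ratio had moved to -0.21.

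**Figure D2:**
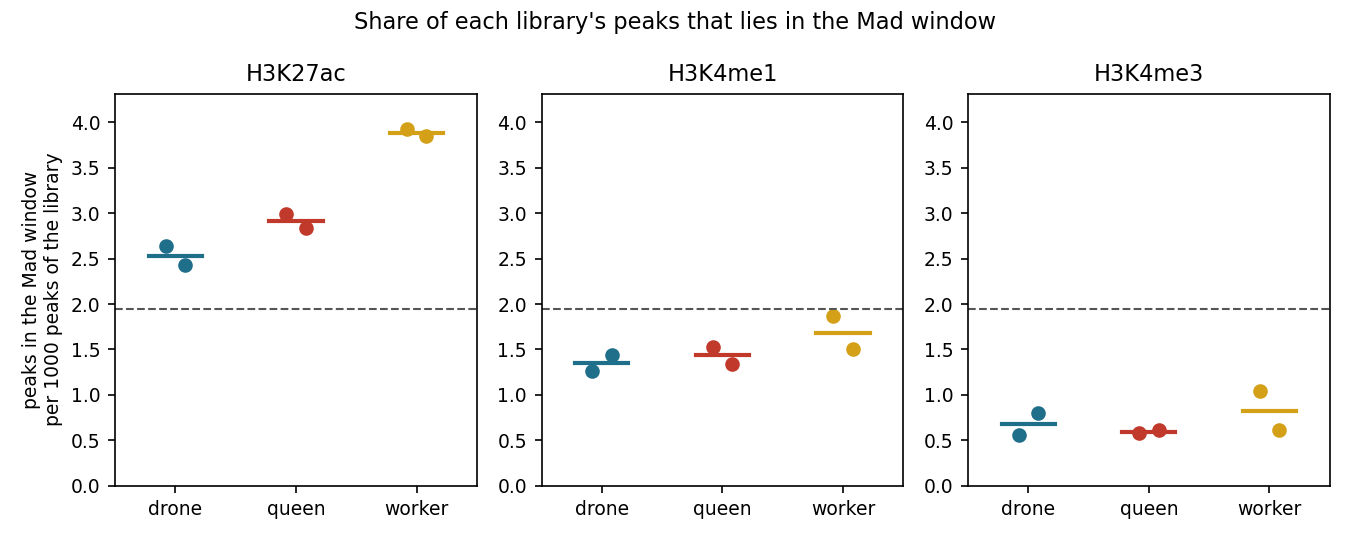
Peaks in the Mad window per 1000 peaks of the library (vertical axis) for H3K27ac, H3K4me1 and H3K4me3, with drone, queen and worker from left to right; points are libraries, short lines are means of 2 libraries and the dashed line is the 1.95 per 1000 of an even spread. For H3K27ac all 6 libraries lie above that line and the castes do not overlap, from 2.43 in a drone library to 3.93 in a worker library, whereas H3K4me1 and H3K4me3 lie below it.

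In peaks per 100 kb, Mad stood above the median of other long genes for H3K27ac and below it for the other marks. Averaged over libraries it held 16.97 H3K27ac peaks per 100 kb, against a median of 4.15 over the 393 genes of at least 100 kb, and ranked 65th. It held 6.27 H3K4me1 peaks per 100 kb against a median of 7.97 and 0.896 H3K4me3 peaks against a median of 1.68, which placed it 260th and 308th. In the length covered, by contrast, H3K4me3 took up 0.851% of Mad against a median of 0.842%. Peaks in the span of each long gene, relative to an even spread and on a log2 scale, were correlated with those of Mad over the 24 libraries. The 5 genes with the highest r were LOC411046 (Pearson r = 0.993), LOC724468 (r = 0.990), Camkii (r = 0.989), LOC409611 (r = 0.987) and LOC408915 (r = 0.987), against a median r of 0.499 over the long genes compared. This r compares the pattern over libraries and not the level. The 24 values share their 4 marks and library depths, so these r are descriptions only. Camkii, which encodes the calcium/calmodulin-dependent kinase of synapses, held between 33 and 72 H3K27ac peaks and 0 H3K27me3 peaks in a library. Its span is 128 kb, so its H3K27ac peaks were denser than those of Mad.

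When the H3K27ac peaks of the 6 libraries were merged wherever they overlapped, 110 regions resulted in the window. A peak of all 6 libraries was present in 35 of them, which is 31.8% against 36% of the 33289 regions of the placed chromosomes, and a peak of 1 library alone in 16 (14.5% against 21.5%). Peaks in both libraries of 1 caste and in none of the other 4, called restricted here, were found in 12 regions (10.9% against 9.64%). Of these 9 were restricted to worker (8.18% against 3.41%), 3 to queen (2.73% against 3.5%) and 0 to drone (against 2.74%). A further 9 regions had peaks in all 4 female libraries and in neither drone library (8.18% against 4.28%), whereas 0 had the drone and queen libraries without worker (against 1.66%) and 2 had the drone and worker libraries without queen (1.82% against 0.874%). The window thus held larger shares of worker-restricted and female regions than the chromosomes as a whole, and its share restricted to any 1 caste was close to the background. These shares carry no test. The 9 female regions became 15 without drone replicate 1 and 14 with 1 or the other queen replicate left out, and the 9 worker-restricted regions became 19 without worker replicate 1 and 14 with 1 or the other queen replicate left out. Leaving out a library loosens the rule, since 1 library then suffices for its caste or fewer libraries must lack a peak. These rises therefore do not measure dependence on a replicate.

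**Figure D3:**
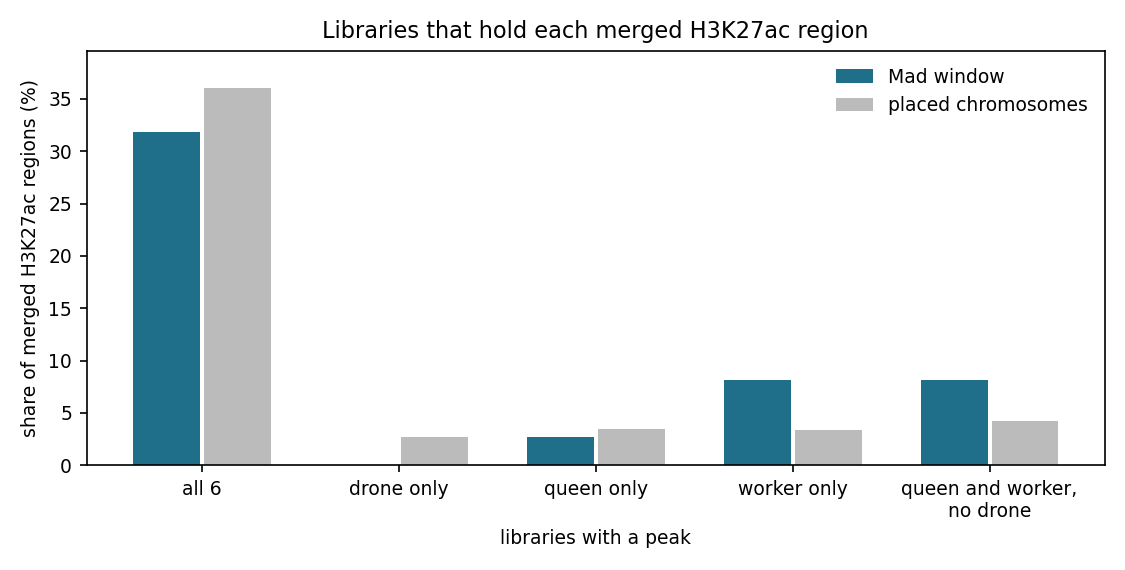
Share in percent (vertical axis) of merged H3K27ac regions that have peaks in the libraries named below the bars, for the 110 regions of the Mad window (blue) and the 33289 regions of the placed chromosomes (grey). Regions restricted to worker and regions of queen and worker without drone each make up 8.18% in the window, against 3.41% and 4.28%.

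These counts changed when pileup and background were scaled to the lowest depth and peaks with a −log10 p of at least 4 were kept, which alters depth and threshold at once. After this scaling 5 of 93 regions were restricted to worker (5.38% against 2.1%), 4 to queen (4.3% against 3.75%) and 2 to drone (2.15% against 3.96%), and 7 had female peaks only (7.53% against 3.31%). Of the 9 worker-restricted regions 3 kept both worker peaks and no other, and 4 lost all peaks. The 3 queen-restricted regions all kept their calls, as did 7 of the 9 female regions.

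The worker-restricted regions were weak, with folds over the local background, as the authors' peak caller gave them, between 1.43 and 2.93. The strongest, at chr15:1185908-1186255, had folds of 2.93 and 2.87 in the worker libraries and stood alone, with no other H3K27ac region called in both libraries of a caste within 5 kb. It kept its calls after scaling. Another lay just inside the low-coordinate end of Mad, at chr15:951418-951673, and also kept its calls.

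The female regions reached higher folds. At chr15:1194892-1195332, 244 kb from the low-coordinate end, H3K27ac had folds of 5.43 and 6.88 in queens and 2.92 and 4.35 in workers, and no drone peak. In the queen lists 25.4% and 18.1% of all peaks had a higher fold than this region, and in the worker lists 52.8% and 29.7% had. It is the strongest region of a cluster of 3 (chr15:1191468-1198832) in which neither drone library had any peak, as called by the authors. After scaling it kept its 4 female calls, whereas the other 2 regions of the cluster had no call in any library. H3K4me1 was called at the strongest region in all 4 female libraries and in neither drone library (chr15:1194919-1195262). It kept these calls after scaling. Such H3K4me1 regions numbered 2 of 70 in the window (2.86% against 3.01% over the placed chromosomes). H3K4me3 was called there in queen replicate 1 only (fold 2.37), and this call was lost on scaling.

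Queen libraries stood apart at neighbouring sites near the high-coordinate end. The region at chr15:1323247-1323505 was restricted to queen, with folds of 4.94 and 4.65. Further towards the high-coordinate end, the region at chr15:1327419-1328061 had peaks in all 6 libraries, with folds of 3.20 and 2.31 in drones, 9.13 and 8.51 in queens and 3.16 and 4.22 in workers. Since folds of different lists are not on 1 scale, their ranks are given as well: 65.8% and 89.8% of the peaks of the drone lists were higher, against 10.8% and 12.4% in the queen lists and 46.99% and 31.4% in the worker lists. In queen this region thus ranked higher than in any library of the other castes. It starts 576 bp after the end of the nested long non-coding RNA gene LOC107965615. H3K4me3 peaks in all 4 female libraries and in neither drone library lay over it, the only such region of the 12 H3K4me3 regions of the window (8.33% against 4.82%; chr15:1327483-1328019, folds of 2.17 and 2.06 in queens and 2.39 and 2.62 in workers). The drone H3K4me3 lists rested on 5.21 M and 4.20 M recovered tags against at least 13.6 M in the female lists. All 4 female H3K4me3 peaks were lost on scaling.

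Regions called in both libraries of at least 1 caste numbered 88 (80% of the 110, against 72.2% over the placed chromosomes), and when those at most 5 kb apart were joined they formed 23 clusters. Only 5 of the clusters had at least 4 regions, and these held 54 of the 88 regions, whereas 8 clusters were single regions. The longest stretch between clusters measured 37.2 kb (chr15:983575-1020777). The 102 kb of Mad next to its high-coordinate end (chr15:1258106-1360467) held between 31.3% and 40% of the H3K27ac peaks of a library that overlapped Mad.

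The cluster with most regions lay 70 to 108 kb from the low-coordinate end (chr15:1020778-1058561), away from any gene end of the table. Its 17 regions included 8 with peaks in all 6 libraries and 3 restricted to worker. H3K27ac peaks covered 4.37 and 3.75 kb of it in drones, 6.42 and 6.85 kb in queens and 10.3 and 10.0 kb in workers. The worker mean of 10.1 ± 0.180 kb was 1.53 times the queen mean of 6.64 ± 0.308 kb and 2.5 times the drone mean of 4.06 ± 0.443 kb (SD, n = 2 each). Set against the length covered in the whole library, the log2 ratio was -0.84 for drone over female and -0.65 for queen over worker, with a within-caste SD of 0.18. These ratios are descriptions without a test, because the cluster was drawn from the same peaks. Of its 17 regions 6 were called in both libraries of worker and of no other caste, and without these the other 11 form 3 clusters. Peaks in the other 11 regions covered 4.14 and 3.75 kb in drones, 6.42 and 5.33 kb in queens and 7.11 and 6.74 kb in workers. With peaks lost at the lowest H3K27ac depth left out, an alternative chosen after seeing the data that keeps the width of the other peaks, the coverage was 4.14 and 3.75 kb in drones, 6.42 and 5.99 kb in queens and 8.43 and 9.74 kb in workers, and the castes still did not overlap. In the drone and worker libraries the strongest region of the cluster lay at chr15:1032668-1033009. It had peaks in all 6 libraries, with folds of 5.49 and 4.77 in drones, 3.93 and 4.67 in queens and 5.03 and 5.13 in workers. In the queen libraries chr15:1057961-1058561 was stronger, with folds of 4.10 and 4.83.

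In the 4 other large clusters the worker mean was between 0.879 and 1.07 times the queen mean. At 352 to 381 kb (chr15:1303105-1331963, 15 regions, 9 of them with peaks in all 6 libraries) peaks covered 4.86 and 4.50 kb in drones, 6.70 and 5.14 kb in queens and 6.51 and 6.03 kb in workers. At 387 to 418 kb (chr15:1338240-1368875, 11 regions), which includes the high-coordinate end of Mad, they covered 7.97 and 8.10 kb in drones, 10.2 and 8.91 kb in queens and 10.1 and 10.4 kb in workers. In kb, queen and worker overlapped in both. Set against the length covered in the whole library, queen lay below worker in both, with log2 ratios of -0.14 and -0.14 in the order given, and drone lay below female, with log2 ratios of -0.20 and -0.12. At 171 to 183 kb (chr15:1121760-1133582, 7 regions) they covered 2.42 and 2.11 kb in drones, 3.71 and 2.46 kb in queens and 3.19 and 3.12 kb in workers, so that drones were lowest there too. In the small cluster at 280 to 286 kb (chr15:1231252-1237133, 4 regions) the coverage was 0.975 and 1.05 kb in drones, 1.20 and 1.05 kb in queens and 0.688 and 1.29 kb in workers, and the worker libraries spanned the values of both other castes.

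**Figure D4:**
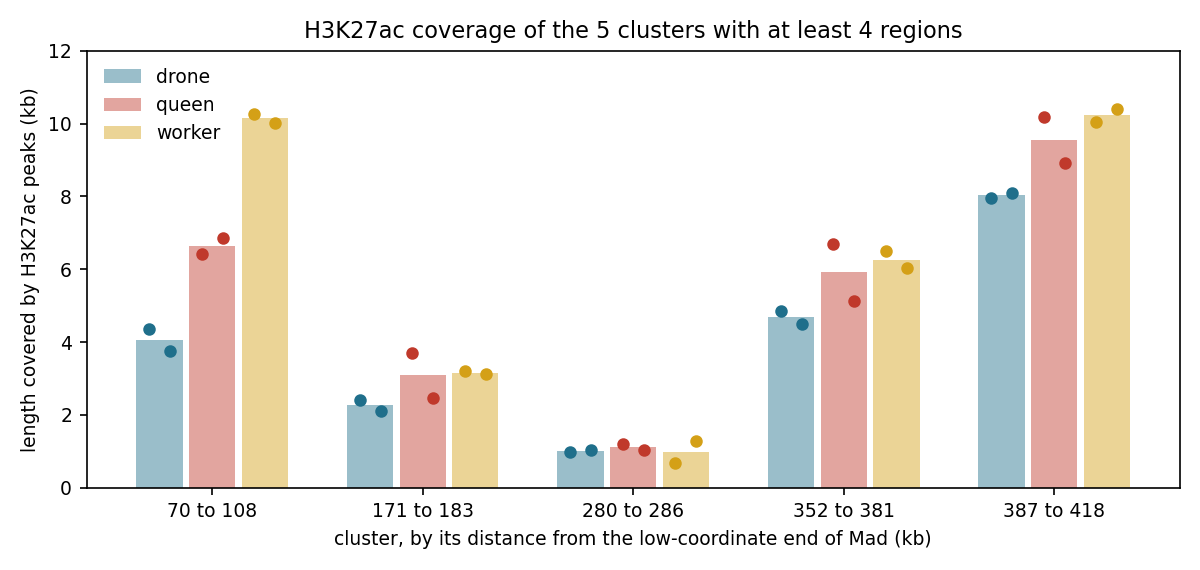
Length in kb covered by H3K27ac peaks (vertical axis) in the 5 clusters with at least 4 regions, named by their distance in kb from the low-coordinate end of Mad. Bars are means of 2 libraries, points are libraries, and drone, queen and worker stand from left to right. The castes are furthest apart in the cluster at 70 to 108 kb, with means of 4.06, 6.64 and 10.1 kb for drone, queen and worker.

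A broad domain of H3K4me3 and H3K27ac lay at the high-coordinate end of Mad in all 6 libraries of each mark. In each of the 6 H3K4me3 libraries 1 peak ended close to that end, with widths of 2726 and 2637 bp in drones, 2817 and 2817 bp in queens and 2748 and 2715 bp in workers, against a median width between 335 and 434 bp. At most 0.394% of the peaks of a list were wider. The summits lay between 262 and 305 bp inside the gene, so that the 6 differed by 43 bp. The H3K4me3 folds were 24.8 and 15.3 in drones, 13.0 and 12.4 in queens and 9.20 and 8.35 in workers, and between 8.26% and 14.4% of the peaks of a list were higher. The drone lists had higher folds throughout, with a median of 6.51 and 6.61 over all peaks against at most 3.75 in the female lists, and folds of different lists are not on 1 scale.

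H3K27ac covered the same stretch in every library with peaks between 2993 and 4803 bp wide. Here the H3K27ac folds were 14.9 and 14.0 in drones, 6.89 and 7.21 in queens and 7.78 and 8.11 in workers. Ranked within the lists, 5.06% and 5.83% of drone peaks were higher, against 17.1% and 16.7% in queens and 9.86% and 9.68% in workers. The low-coordinate end had no such domain. The only H3K4me3 peak within 10 kb of it was a weak one in worker replicate 1 (chr15:954985-955384, fold 2.09).

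Beyond the broad domain H3K4me3 was sparse. Drone libraries had 3 and 3 H3K4me3 peaks in the window, queen libraries 5 and 6, and worker libraries 9 and 4, which merged into 12 regions. Peaks of all 6 libraries were found in 2 regions (16.7% against 21.3% of the placed chromosomes), namely the broad domain and chr15:1366789-1368749, which lies within the neighbouring gene LOC408504. Only 1 region was restricted to a caste (8.33% against 10.2%), a weak queen peak beside the broad domain (chr15:1357038-1357405, folds of 2.39 and 1.78), for which the background of queen alone was 7.51%. On scaling it kept its call in queen replicate 1 only. In share per 1000 peaks the castes overlapped, with a log2 ratio of -0.033 for drone over female (exact permutation p = 0.933) and -0.42 for queen over worker (exact permutation p = 0.667), with a within-caste SD of 0.38.

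H3K4me1 marked fewer sites than H3K27ac, and few were common to the libraries. The counts in the window were 24 and 31 in drones, 36 and 28 in queens and 23 and 21 in workers, or 1.27 and 1.44, 1.53 and 1.34, and 1.87 and 1.51 per 1000 peaks in the same order. The log2 ratio was -0.20 for drone over female (exact permutation p = 0.267) and -0.23 for queen over worker (exact permutation p = 0.667), with a within-caste SD of 0.17, and adjusted over the 6 comparisons the p-values of H3K4me1 and H3K4me3 lay between 0.667 and 0.933. Merging gave 70 H3K4me1 regions, of which 2 had peaks in all 6 libraries (2.86% against 4.58%) and 25 in a single library (35.7% against 39.7%). In 34 regions both libraries of at least 1 caste had a peak (48.6% against 49.6%).

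The 2 H3K4me1 sites common to all libraries were chr15:1123238-1123804 and chr15:1205215-1205592. At the second, 254 kb from the low-coordinate end, H3K4me1 had folds of 2.94 and 3.46 in drones, 4.95 and 4.30 in queens and 3.79 and 2.27 in workers. H3K27ac was called at the same place in all 6 libraries, with folds of 2.22 and 3.73 in drones, 6.49 and 5.35 in queens and 3.05 and 4.07 in workers. It formed a lone H3K27ac region, next to the longest stretch of the window that was free of H3K27ac peaks in all libraries (25.6 kb, chr15:1205652-1231251).

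Restricted H3K4me1 regions numbered 6 in drones (8.57% against 8.78%), 5 in queens (7.14% against 6.21%) and 0 in workers (against 1.04%), so these shares were close to the background. Their folds lay between 1.51 and 2.59 in drones and between 1.39 and 2.64 in queens. Of the 6 drone regions 5 overlapped H3K27ac called in both drone libraries and 5 overlapped H3K27ac called in both worker libraries. At chr15:1053893-1054207 H3K4me1 was restricted to drone and H3K27ac (chr15:1053856-1054268) to worker. On scaling this H3K4me1 region kept its call in drone replicate 1 only, whereas the H3K27ac region kept both worker calls. Of all restricted H3K4me1 regions, 5 of the 6 in drones and 2 of the 5 in queens kept their calls on scaling. Another 2 of the queen regions lost all calls.

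H3K4me1 at Mad lay mostly under H3K27ac. Of the regions called in both libraries, 12 of 16 in drones (75% against 46.7% in the rest of the genome), 18 of 21 in queens (85.7% against 40.1%) and 10 of 11 in workers (90.9% against 43.9%) overlapped H3K27ac of the same caste. The reverse share was near that of the genome, since 25% of 48 drone, 32.1% of 56 queen and 12.2% of 82 worker H3K27ac regions overlapped H3K4me1, against 28.6%, 29.2% and 14.2%. H3K27ac with H3K4me3 was rarer at Mad than elsewhere, at 4.17% in drones, 5.36% in queens and 3.66% in workers, against 16.8%, 27% and 21.4%. These are counts over neighbouring regions of 1 gene and carry no test.

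Mad carried no H3K27me3 peak in any library. Between 42 and 48 peaks per library would have been expected from an even spread, and a count of 0 allows up to 3. No H3K27me3 peak is a missing call, which does not show that the mark is absent. The nearest H3K27me3 peak beyond the high-coordinate end lay 528 to 658 kb away in the 6 libraries. Towards the chromosome start only queen replicate 2, 411 kb from the gene, and worker replicate 2, 657 kb from it, had any H3K27me3 peak. In all 6 libraries together the stretch free of H3K27me3 peaks around Mad measured 1349 kb (chr15:539744-1888685) and was the third longest on the placed chromosomes. Of 393 genes of at least 100 kb, 68 had no H3K27me3 peak in any of the 6 libraries (17.3%), and Mad was the longest of them.

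Genes inside and next to Mad differed in their marks. Of the long non-coding RNA genes nested in Mad, LOC102654757 (chr15:1078859-1084275) overlapped H3K27ac in the 4 female libraries and in neither drone library, LOC107965614 (chr15:1307103-1310407) did in all 6 libraries, and LOC107965615 (chr15:1325718-1326842) overlapped no peak of any mark. On the low-coordinate side LOC107965787, also a long non-coding RNA gene, lies 1657 bp from Mad and held H3K27ac in all 6 libraries. Its region at chr15:948260-948633 had folds of 4.95 and 5.37 in drones, 4.55 and 4.38 in queens and 6.54 and 8.75 in workers. On the other side the protein-coding LOC725987, 1502 bp from Mad, overlapped no peak, and LOC408504 overlapped H3K27ac and H3K4me3 in all 6 libraries. LOC551005 overlapped all marks but H3K27me3 over its whole span. The window holds only its low-coordinate end, and no peak of the window lay over that part.

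On average, replicates of 1 caste shared more of the window than libraries of different castes. For H3K27ac the Jaccard index, the length covered in both of a pair of libraries over the length covered in either, was 0.695 ± 0.0687 for the 3 pairs of replicates and 0.551 ± 0.0704 for the 12 pairs of different castes (SD). For H3K4me1 it was 0.358 ± 0.0680 against 0.210 ± 0.0456, and for H3K4me3 0.742 ± 0.144 against 0.641 ± 0.0964. There were exceptions, since the queen H3K27ac replicates (0.618) shared less than 4 of the 12 pairs of different castes did, and the worker H3K4me3 replicates (0.576) less than 8 of 12. Pairs share libraries, so these values are descriptions.

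The other genes of the BMP and activin pathways could not be set beside Mad. Only Mad itself was matched by symbol among 22 genes listed, which were ligands such as dpp and gbb, receptors such as tkv and put, the Smads Med, Smox and Dad, nuclear partners such as shn and brk, and extracellular regulators such as sog. The gene table used carries no product names, and the remaining 21 were not analysed here.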

How the data were processed

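Peaks of the 24 libraries were used as deposited; the 3 input samples were not used. Per the submitters' notes and the study's methods, the authors mapped reads with BWA 0.7.17 to Amel_HAv3.1 and called peaks per library with MACS2 2.2.7.1 (genome size 270000000 bp); the control and other settings are not given in the sources used here. The deposited columns hold each peak's position, its fold (a ratio to the local background), and the −log10 of its p-value and q-value, whose lowest value lay between 2.00 and 2.02 in all lists. The deposited score column, which MACS2 derives from the q-value, was not used. Pileup and background of each peak were recovered from fold and −log10 p. Pileups came out whole (within 0.05) for between 99.85% and 100% of peaks of a list. The tag number was then estimated as the lowest background times the genome size, divided by the length of the shortest peak. This takes the lowest background for that of the genome and the shortest peak for the fragment length, which was not checked. All scaled results rest on these estimates. For the scaled alternative, pileup and background were multiplied down to the lowest tag number of the mark and peaks with a −log10 p of at least 4 kept. The other alternatives are named in the closing section. Folds served only within a list. Positions count from 1.

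Peaks were merged over the 6 libraries of a mark with pandas 2.3.3 and scipy 1.17.1, and compared over libraries by exact permutation tests. Nothing says that libraries of different marks came from separate pools. Background shares include the window. The merging and the permutation within replicate numbers were tested on simulated data. The named genes are Mad, the genes overlapping its window, the nearest on each side, the 5 long genes most like it by Pearson r, and the pathway list. Sites named singly were chosen after their values were seen. The members, lists and tests were chosen with earlier results of these data known.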

Additional observations from a re-analysis of the deposited data

How the results depend on the processing

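The H3K27ac share of Mad kept its direction under all alternatives, with a log2 ratio between -0.51 and -0.32 for drone over female and between -0.46 and -0.21 for queen over worker. H3K4me1 did as well, between -0.40 and -0.11 for drone over female and between -0.53 and -0.074 for queen over worker. H3K27me3 had no peaks and no ratio. For H3K4me3, with at most 9 peaks in a library, drone over female turned to 0.29 with equal numbers of peaks, 0.66 at scaled depth, 0.21 with 50 kb on each side and 0.022 for base pairs covered, and without 1 replicate it lay between -0.29 and 0.23 (0.23 without drone replicate 1 and 0.16 without worker replicate 1). With the gene span alone it was -1.33, with an exact permutation p = 0.133, the smallest possible. Queen over worker for H3K4me3 was 0 with equal numbers of peaks, -1.16 at a −log10 q of at least 5 and between -0.80 and -0.043 without 1 replicate.

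Regions restricted to 1 caste were 12 for H3K27ac, 28 when 1 library of the caste sufficed, and 12 to 22 without 1 replicate (22 without worker replicate 1 and 19 without queen replicate 2). For H3K4me1 they were 11, but 3 at a −log10 q of at least 5, 4 with equal numbers of peaks, 36 when 1 library sufficed and 15 to 20 without 1 replicate (20 without drone replicate 1, 18 without queen replicate 2 and 17 without worker replicate 2). For H3K4me3 the 1 region became 0 with equal numbers of peaks, at scaled depth and with peaks merged up to 500 bp apart, 7 when 1 library sufficed and 1 to 6 without 1 replicate (2 without queen replicate 2 and 6 without worker replicate 2). At a −log10 q of at least 5 the count stayed at 1, but 0 regions were then restricted to queen and 1 to worker. The 23 H3K27ac clusters became 49 with a gap of 2 kb and 8 with a gap of 10 kb, and were 21 to 23 without 1 replicate. Without 1 replicate the rule for restricted regions is looser, since 1 library then suffices for its caste or fewer libraries must lack a peak. Rises in those counts thus do not measure dependence on a replicate. The causes were not tested beyond what each setting changes. The correlation over regions of replicate deviations between castes lay between -0.11 and 0.019, which shows no clear pairing by replicate number. It cannot exclude one. With the replicate number as a block, the permutation p was between 0.222 and 1 in the 6 comparisons. The smallest p that the blocks allow is 0.222 for drone over female and 0.5 for queen over worker. Both H3K27ac comparisons had that smallest p. The log2 ratios were as before (-0.41 and -0.42 for H3K27ac, -0.20 and -0.23 for H3K4me1, -0.033 and -0.42 for H3K4me3).

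Peak lists that rest on few tags can lack weak peaks, and a site without a call is not a site without the mark.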
